A study of Mus musculus with 5 samples.

Results

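The regions described here are 1402 of the 90337 deposited PABPC1 CLIP-seq peaks, 1.55% of the list. Each overlaps by at least 1 nt, on the same strand, an annotated start codon of a protein-coding transcript and touches no stop codon (GENCODE mouse release M21, basic set, mm10). They lie on 1344 genes, of which 54 carry more than 1, and they cover 1409 distinct start codons. Another 14 peaks touched both a start and a stop codon and were left out.

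The study mapped RNA bound by PABPC1 in MEL cells, a mouse erythroleukemia line of blast-like red cell precursors, with 3 CLIP-seq samples, and measured messenger RNA with 2 mRNA-seq samples of the same line. All samples are one cell line without a stated treatment or genotype difference. Cells were irradiated on ice with UV at 400 mJ/cm2, which crosslinks proteins to RNA, RNase digestion of the lysate lasted 10 min, and an antibody against PABPC1 pulled down the bound fragments. The authors merged the CLIP-seq samples into 1 list of peaks and 1 list of deletion sites, single bases at which sequenced tags carry a deletion left by the crosslink, and they gave 1 RPKM value a gene (reads scaled to gene length and library size). There is therefore no spread between replicates for any value. Every interval below is at 95%: exact binomial for shares, binomial order-statistic for medians, and approximate for a rank correlation. They reflect counting over peaks, genes or sites and no error between samples. No test between conditions was possible, and peaks or genes are not replicates of the experiment.

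All 9 genes chosen as markers of erythroid MEL cells were listed at 1 RPKM or more, between 19.6 and 428 RPKM with a sum of 1280. Spi1, at 105 RPKM, is among these 9 and is not particular to erythroid cells. Of 7 markers of other blood cells, 0 reached 1 RPKM and the highest stood at 0.61 RPKM. Of 7 fibroblast markers, Thy1 stood at 65.3 RPKM, Pdgfrb at 2.60 RPKM, and the other five were below 1 RPKM or not listed. The whole list of 90337 peaks had a median height of 9 tags and was accompanied by 11907 deletion sites, and 18349 genes had an RPKM value.

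PABPC1 is the main cytoplasmic poly(A)-binding protein: it coats the poly(A) tail of messenger RNAs and binds eIF4G of the cap-binding complex. The start codon, usually AUG, is where a small ribosomal subunit that has scanned the 5′ UTR from the cap stops and is joined by the large subunit, and a purine at position -3 and a G at +4 (with A of the codon as +1) favour its recognition. PABPC1 is also known to bind an A-rich stretch in the 5′ UTR of its own messenger RNA and to reduce its translation.

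The windows under the 8 tallest start-codon peaks are shown first because 6 of these genes encode ribosomal proteins or other parts of the translation machinery. Each is 30 nt of the spliced transcript, 5′ to 3′, with the start codon in capitals, on mm10.
Rplp1, chr9:61914414-61914443, minus strand: ccggcagtctacagcATGgcttccgtctcc
Pabpc1, chr15:36608492-36608521, minus strand: ggcagccgtgccgagATGaaccccagcgcc
Rps9, chr7:3704337-3704366, plus strand: cctagcgaggtcaacATGccggtcgccaga
Rack1, chr11:48800449-48800478, plus strand: gcatcaactgcagccATGaccgagcagatg
Rpl8, chr15:76904298-76904327, plus strand: tccagactcgccgccATGggccgtgtgatc
Rps20, chr4:3835280-3835501, minus strand, across an intron: agccgcgcctcagccATGgcatttaaagat
Tpt1, chr14:75845414-75845443, plus strand: tccccagccgtcaccATGatcatctaccgg
Mt1, chr8:94179296-94179325, plus strand: tcaccagatctcggaATGgaccccaactgc

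A second set shows the bases at which PABPC1 tags carried deletions, around the site with the most deletions in each of the 4 genes with the most sites, with the deleted base in capitals. Positions of deletion sites are in nt along the transcript from the first base of the start codon, counted as 0. The last window, in Pabpc1, is the site with the highest share of A around it and was chosen after the values were seen.
Pabpc1, position -281, chr15:36608773-36608802, minus strand: ttcctcttttataaaAtaacccggtgaagc
Kcmf1, position 12, chr6:72861762-72861791, minus strand: ccgatgcagtgcataTtaacaagggtagac
Ccnd2, position -43, chr6:127150802-127150831, minus strand: aaaaaataataataaTaaaaaaaatttaca
Rack1, position -60, chr11:48800389-48800418, plus strand: cgctgtggtgcttggCtctctgagctatcc
Pabpc1, position -379, chr15:36608871-36608900, minus strand: aaaaatccaaaaaaaAtctaaaaaatcctt
The Ccnd2 window and the second Pabpc1 window hold runs of A, and the Kcmf1 and Rack1 windows hold none of 6 A.

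Most start-codon peaks were low, and a small number were very tall. Their heights ran between 2 and 3929 tags with a median of 10 (interval 10 to 11), quartiles of 6 and 23, and a 90th percentile of 58. In all, 821 peaks had 9 tags or more, 87 had 74 or more (74 tags is the 90th percentile of all peaks), and 9 had 500 or more. Their summed height was 44382 tags, 1.30% of that of all peaks. The single tallest peak, on Rplp1, held 8.85% of this sum, the tallest 10 held 26.6% and the tallest 50 held 45.7%.

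Set against other places on the messenger RNA, start-codon peaks had a higher median than peaks of the 5′ UTR and coding sequence and a lower one than stop-codon peaks. The median was 10 tags for start-codon peaks, 6 for the 887 peaks wholly in a 5′ UTR, 6 for the 17261 peaks wholly in coding sequence, 38 for the 5839 peaks over a stop codon and 10 for the 33961 peaks wholly in a 3′ UTR. A height of 74 tags or more was reached by 6.21% of start-codon peaks (interval 5.00 to 7.60), against 2.48% in the 5′ UTR, 1.26% in coding sequence, 38.3% over stop codons and 11.1% in the 3′ UTR. Start-codon peaks had a median genomic width of 82 nt (interval 77 to 85), against 55 nt in the 5′ UTR, 56 nt in coding sequence and 170 nt over stop codons. Their intervals of both median height and width did not overlap those of the 5′ UTR and coding classes. The classes compared are not alike. Start-codon and stop-codon peaks had to overlap a fixed codon of 3 nt, a rule that wide peaks meet more easily. Taller start-codon peaks were also wider, with a median of 58 nt at 2 to 8 tags and 170.5 nt at 200 or more. The part of this rule in the differences of height and width was not tested. In addition, 5′ UTR and coding peaks had to lie wholly within their region, while start-codon peaks could run past an exon end. The 767 start-codon peaks within 1 exon had a median of 8 tags (interval 7 to 9) and a width of 69 nt (interval 66 to 73), and 2.61% of them (interval 1.60 to 4.00) reached 74 tags, which overlaps the interval of 5′ UTR peaks (1.56 to 3.73) and lies above that of coding peaks (1.10 to 1.44). With the condition relaxed, 29717 peaks that touched coding sequence but no start or stop codon had a median of 7 tags and a width of 62 nt, and 3.14% of them reached 74 tags. The remaining peaks of the list, within no single region, numbered 30973 with a median of 8 tags, and 9.04% of them reached 74 tags.

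**Figure D1:**
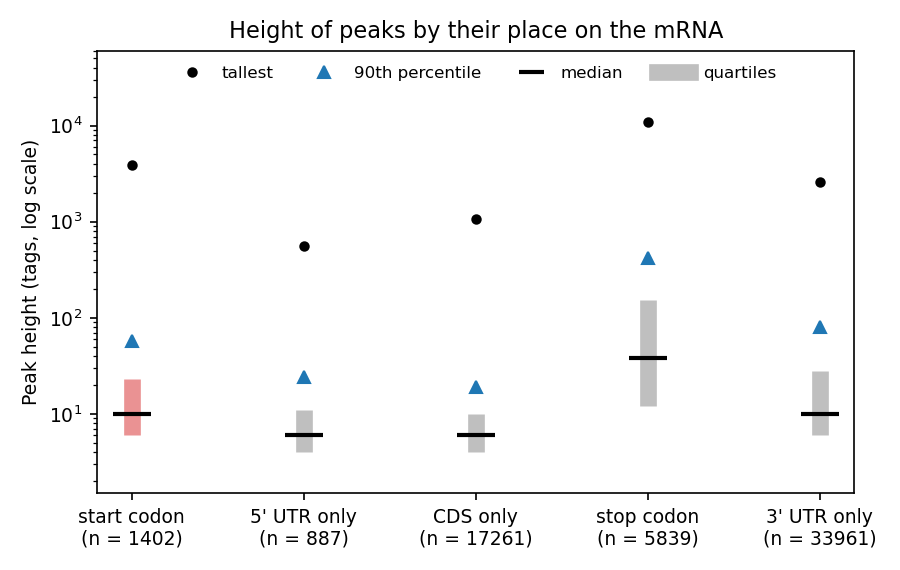
Height in tags (log scale) of peaks by their place on the messenger RNA, with the median as a line, the quartiles as a bar, the 90th percentile as a triangle and the tallest peak as a dot. Start-codon peaks have a median of 10 tags, against 6 in the 5′ UTR and coding sequence and 38 over stop codons. The 5′ UTR and coding classes hold peaks wholly within their region, and start-codon peaks within 1 exon have a median of 8.

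The codon was usually the main start of its gene. Of the 1402 peaks, 1143 (81.5%) covered the most 5′ annotated start of the gene and 951 (67.8%) the start of a principal transcript. Taking as leading transcript the principal one, or otherwise the one with the longest coding sequence, 1172 peaks (83.6%) covered its start codon. Another 209 (14.9%) covered an alternative start inside the coding sequence of the leading transcript, with a median height of 11 tags (interval 10 to 14) against 10 for the leading starts. The tallest of these was on Creg1, at 386 tags. A peak on such a codon also lies over coding sequence of the leading transcript, so it cannot be assigned to one use of that RNA.

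Along the transcript the peaks reached farther into the coding sequence than into the 5′ UTR. The median reach was 26 nt upstream of the codon (interval 24 to 28, quartiles 9 and 49) and 43 nt downstream (interval 40 to 45, quartiles 22 and 70.8), and 873 peaks (62.3%) reached farther downstream. The codon was complete within 1360 peaks. Few extended to the cap end: 69 (4.92%) reached the first base of the annotated transcript, while the median 5′ UTR of these transcripts was 190 nt.

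Coverage did not culminate at the codon. Over the leading transcripts of 7056 genes with at least 100 nt of 5′ UTR and 1 RPKM or more, the share of genes with a peak over a given base was 4.96% at 100 nt upstream, 8.22% at 50 nt upstream and 11.7% (interval 11.0 to 12.5) at the codon. It went on to 12.4% at 50 nt downstream, 13.3% at 100 nt, 14.6% at 200 nt and 16.4% (interval 15.5 to 17.3) at 300 nt. The share at the codon was higher than at 100 nt upstream and lower than at 300 nt downstream, beyond these intervals. For peaks of 74 tags or more, the share was 0.50% at 100 nt upstream, 0.69% at the codon and 1.96% at 300 nt downstream.

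**Figure D2:**
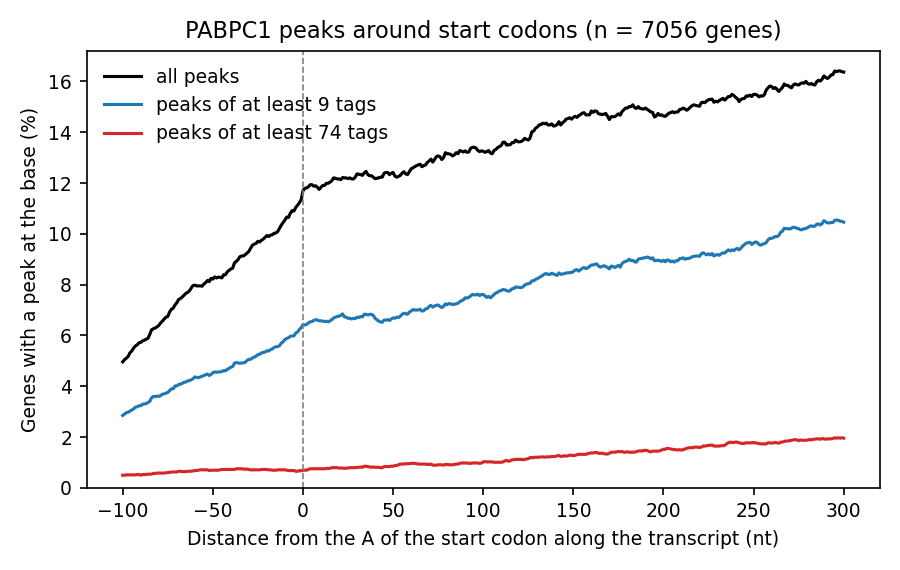
Share of genes (percent) with a peak over each base, by distance in nt from the first base of the start codon. Distance is along the spliced transcript, in 7056 genes, for all peaks and for those of at least 9 and at least 74 tags. Coverage of all peaks is 4.96% at 100 nt upstream, 11.7% at the codon and 16.4% at 300 nt downstream, with no local maximum at the codon.

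Peak edges often followed exon ends. Of the 1335 peaks whose transcript has an exon junction downstream of the codon, 355 (26.6%, interval 24.2 to 29.05) ended within 2 nt of the end of the codon's exon, and 209 (15.7%) ran past it by more than 2 nt. Among those of 74 tags or more, 25 of 79 (31.6%, interval 21.6 to 43.1) ended within 2 nt of it. The distance from codon to exon end had a median of 80 nt (interval 76 to 84) in these transcripts, against 108 nt (interval 105 to 110) in 8407 expressed genes without a start-codon peak. In Rps9, Rack1, Rpl8, Rps20, Tuba4a and Eef1b2 the next peak began, on the spliced RNA, at the base after the start-codon peak, with an intron between them. Heights and widths of such adjoining peaks are those of the exon pieces as listed, and no source used here says how the authors' caller treated junctions.

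Within a gene the start-codon peak was usually far below the tallest other peak. The comparison is with the highest of several peaks, in genes with a median of 9 exonic peaks. Peaks of other classes were not compared in this way, so the trait is not shown to be particular to start codons. In 1385 cases the gene had another exonic peak, and the tallest other peak was higher by a median of 19.3-fold; on the log2 scale the start-codon peak over the tallest other had a median of -4.27 (interval -4.39 to -4.15). The start-codon peak was at most 10% as tall as the other in 949 cases (68.5%), was the tallest of its gene in 44 (3.18%, 1 of them tied), and was the gene's lone exonic peak in another 17. The tallest other peak covered a stop codon in 621 cases (44.8%), lay wholly in the 3′ UTR in 448 (32.3%) and wholly in coding sequence in 38 (2.74%). In 269 cases (19.4%) it lay within no single region, and 59 of these peaks (4.26% of all cases) touched coding sequence. Among the 87 peaks of 74 tags or more, 19 (21.8%) were the tallest of their gene.

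**Figure D3:**
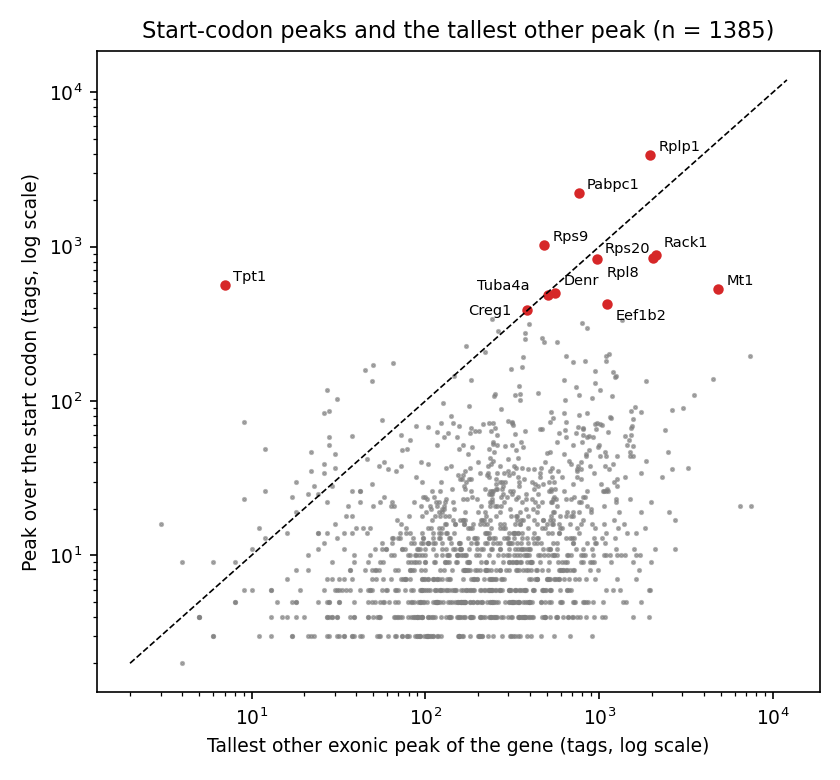
Height of each start-codon peak against the tallest other exonic peak of its gene, in tags (log scales), for 1385 peaks. The 12 genes with the tallest start-codon peaks are named, and the dashed line marks equal height. The median log2 ratio is -4.27, and 44 peaks lie on or above the line.

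Genes with a start-codon peak were more abundant in the mRNA-seq data. Their median was 51.7 RPKM (interval 48.5 to 56.5, 1315 genes), against 17.96 RPKM (interval 17.4 to 18.6) in 8547 expressed genes with exonic peaks but none over a start codon, and they carried a median of 9 exonic peaks against 5. A start-codon peak was present in 1.84% of genes at 1 to 5 RPKM, 6.93% at 5 to 20, 16.0% at 20 to 100 and 36.9% (414 of 1123, interval 34.0 to 39.8) at 100 RPKM or more. Over all 10188 genes at 1 RPKM or more the share was 12.9% (interval 12.3 to 13.6). A stop-codon peak was present in 17.9%, 41.6%, 70.9% and 86.4% of the genes in the same 4 ranges, so it was the more frequent at every level.

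Height followed abundance only loosely. The tallest start-codon peak of a gene had a median of 10.5 tags at 1 to 5 RPKM, 7 at 5 to 20, 8 at 20 to 100 and 19 at 100 or more. Across 1315 genes, which share the same libraries, Spearman's rho between its height and RPKM was 0.38 and Pearson's r on log2 values was 0.38. More RNA of a gene and more PABPC1 on each of its molecules cannot be told apart by height.

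**Figure D4:**
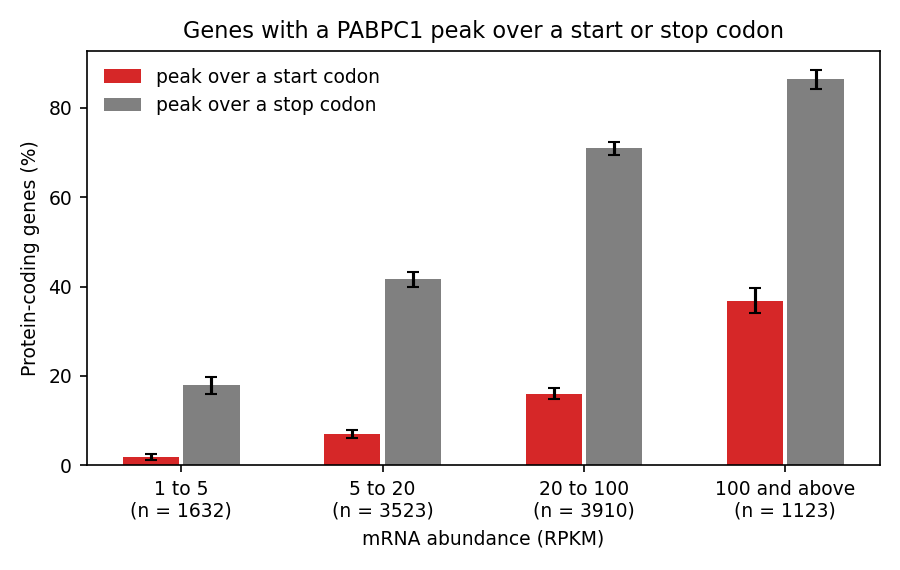
Share of genes (percent) with a peak over a start codon and with a peak over a stop codon, by range of RPKM, with exact 95% intervals. Start-codon peaks are present in 1.84% of genes at 1 to 5 RPKM and in 36.9% at 100 RPKM or more, against 17.9% and 86.4% for stop-codon peaks.

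The tallest start-codon peaks lay on genes of the ribosome and translation. Here and below, tags at a start or stop codon are the height of the whole peak over it. Coverage at the codon itself was not measured and can be lower: Rpl8, with a height of 845, had 576 tags at position 7. Rplp1, a protein of the ribosomal stalk that recruits elongation factors, had a peak of 3929 tags over its start codon (chr9:61914330-61914562). This peak covered the whole 5′ UTR of 114 nt and 69 nt of coding sequence. The stop-codon peak of Rplp1 had 1966 tags and the log2 ratio was 1.00. Although its start-codon peak is the tallest of all, that peak held no listed deletion site.

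Pabpc1, the gene of the captured protein itself, had 2221 tags in the widest of the start-codon peaks of 74 tags or more, 660 nt of spliced RNA that covered the whole 467 nt of its 5′ UTR (chr15:36608310-36608978). Its tallest other peak, in the 3′ UTR, had 762 tags (log2 ratio 1.54), and the peak over its stop codon had 95 tags. The gene's RNA stood at 1143 RPKM. The start-codon peak was thus above each of the other 12 exonic peaks of Pabpc1.

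Rps9, a protein of the small subunit, had 1017 tags at the start codon and 480 at its tallest other peak (log2 ratio 1.08). Rack1, a scaffold protein of the small subunit, had 878 tags at the start and 2111 at the stop codon. Rpl8, of the large subunit, had 845 tags at the start and 2034 at the stop codon. Rps20 had 828 tags in a peak that ended with the last base of the codon at the exon end, and 965 tags at the stop codon. The start-codon peak was thus the taller one in Rps9 and the lower one in Rack1, Rpl8 and Rps20.

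Tpt1, a translationally controlled protein with a 5′ terminal oligopyrimidine tract, had 560 tags at its start codon and 7 at its lone other peak, the largest ratio among peaks of 74 tags or more (log2 6.32). It was listed at 8.34 RPKM. Tpt1, Rplp1 and other translation genes have near-identical processed copies in the genome, and no source used here says how reads shared between copies were counted, so both RPKM and heights of these genes are uncertain.

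Mt1, a metal-binding metallothionein, had 533 tags over its whole 229 nt 5′ UTR and start codon and 4846 over its stop codon (log2 ratio -3.18). Denr, a factor in recycling and reinitiation, had 500 tags in a peak that began at the first base of the codon, and 556 at the stop codon. Tuba4a, an alpha tubulin, had 488 tags at the start and 508 at its tallest other peak. Eef1b2, an elongation factor subunit, had 427 tags at the start and 1107 at the stop codon. Creg1, a secreted glycoprotein, had 386 tags at its internal start codon and 382 at its tallest other peak. Of these 5 genes, Mt1 and Eef1b2 had a start-codon peak lower than their stop-codon peak, and Denr, Tuba4a and Creg1 had peaks of close to equal height.

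After Tpt1, the highest ratios to other exonic peaks, among peaks of 74 tags or more, were on Hist2h2ac (118 tags, log2 2.13), Rpl30 (158 tags, log2 1.81), Ankrd49 (170 tags, log2 1.77), Hist1h3c (103 tags, log2 1.73) and Galnt1 (84 tags, log2 1.69). The Rpl30 peak covered an alternative start. The peak over the start of the principal Rpl30 transcript had 31 tags (log2 -2.35). The narrowest peaks of that height covered 37 nt of spliced RNA on Spc25, a kinetochore protein, 40 nt on Naca, a chaperone of nascent chains, and 41 nt on Rps24, whose peak was 155 nt wide on the genome with 114 nt outside the exons of the transcript. The widest after Pabpc1 covered 394 nt on Serbp1, a ribosome-associated protein, 386 nt on Ccnd2, a D-type cyclin, and 350 nt on Hdgf. Peaks of this height thus ran between 37 and 660 nt in spliced width.

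Gene groups differed in how often and how tall their start-codon peaks were. Of 81 cytosolic ribosomal protein genes at 1 RPKM or more, 26 had one (32.1%, interval 22.2 to 43.4), with a median of 61 tags against 11 over all genes with one. The ribosomal protein peaks had a median log2 ratio to the tallest other peak of -0.89, against -4.27 over all genes. Of the 18 elongation factors and other genes with a 5′ terminal oligopyrimidine tract, 11 had one (61.1%, interval 35.7 to 82.7), with a median of 89 tags. Of 36 initiation factors, 17 had one (47.2%, interval 30.4 to 64.5) with a median of 14 tags: Eif3f had 182 tags, Eif5, which triggers GTP hydrolysis on eIF2, had 108, and Eif1, which guards start codon choice, had 69. Proteasome subunits had a median of 21 tags (13 of 31 genes), erythroid genes 20, chaperones 19 and hnRNP and SR proteins 6 (5 of 28 genes). Ribosomal proteins and the elongation factor list thus had higher medians than these groups, and initiation factors stood between chaperones and hnRNP and SR proteins.

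These groups are more abundant than most genes, so they were also set beside the 36.9% of all genes of 100 RPKM or more that had a start-codon peak. At that level it was present in 18 of 36 ribosomal protein genes, 7 of 11 elongation factors and others with the tract, 13 of 23 initiation factors, 13 of 26 proteasome subunits, 12 of 20 chaperones and 3 of 16 hnRNP and SR proteins. The interval of chaperones as a whole ran between 30.6% and 73.2% around 52.2% (12 of 23), and with so few genes a list the order of these groups is not set.

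Genes of poly(A) binding, deadenylation and decay had a start-codon peak in 8 of 29 cases (27.6%, interval 12.7 to 47.2), against 12.9% of all genes. At 100 RPKM or more it was 3 of 7, against 36.9% of all genes. Pabpc1 apart, the tallest was on Paip2, an inhibitor of PABPC1, with 66 tags, and Cnot1, the scaffold of the CCR4-NOT deadenylase, had 14. Of 28 erythroid genes 4 had one (14.3%, interval 4.03 to 32.7), against 12.9% of all genes at 1 RPKM or more, and at 100 RPKM or more it was 3 of 13 (23.1%), against 36.9%. These were the beta globin gene Hbb-bs with 138 tags, Alad of heme synthesis with 28, the transcription factor Gata1 with 12, and its partner Zfpm1 with 6. Of 13 glycolysis genes 2 had one (15.4%, interval 1.92 to 45.4, against 12.9%), Gpi1 with 58 tags and Gapdh with 4. Of 10 metallothionein, ferritin and other genes with translation control in the 5′ UTR 2 had one (20.0%, interval 2.52 to 55.6, against 12.9%). They were Mt1 with 533 tags and Fth1 with 333, which is the highest median of the lists (433 tags) but rests on 2 genes. Fth1, the ferritin heavy chain whose 5′ UTR holds an iron-responsive element, had 1347 tags at its other peak.

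Replication-dependent histone genes, whose messenger RNAs end in a stem-loop in place of a poly(A) tail, were examined after their values were seen. Of 46 at 1 RPKM or more, 28 had a start-codon peak (60.9%, interval 45.4 to 74.9), against 12.9% of all genes at that level. Their median was 6.14 RPKM in poly(A)-selected RNA, and 6.93% of all genes between 5 and 20 RPKM had a start-codon peak. Selection for a tail that these RNAs lack can understate their RPKM. That range is therefore not a match for their abundance. Including those below 1 RPKM or without a value, 36 histone genes had one, with a median of 29 tags (interval 23 to 39). It was the tallest or lone exonic peak in 24 of the 36, and 16 of the 44 peaks that were tallest over other peaks of their gene were on histone genes. Most of the 36 had no other exonic peak or 1, against a median of 9 exonic peaks in all genes with a start-codon peak. Being the tallest is therefore met more easily in histone genes. Hist1h2ab had 175 tags at the start codon and 65 at its other peak, Hist2h3b had 134 and 49, and Hist2h2ac had 118 and 27. Histone genes are short and near-identical to each other, so which copy a tag came from is uncertain.

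Taken over all levels of RPKM, the sequence around covered start codons was richer in A and T and poorer in C and G. The 1206 covered codons of expressed genes were set against 7677 leading-transcript codons of expressed genes without a start-codon peak, each with 50 nt of transcript on both sides. A run of 6 A (AAAAAA, sense strand) lay within 50 nt of 4.06% of covered codons (interval 3.021 to 5.34), against 1.41% of codons without a peak (interval 1.16 to 1.70). The motif AATAAA, the letters of the polyadenylation signal, was there in 3.40% of covered codons and in 0.99% of the others. A made up 20.9% of bases upstream and 25.05% downstream of covered codons, against 18.1% upstream and 20.99% downstream of the others. Upstream T differed by a similar amount, at 20.9% against 18.1%, and upstream G was lower, at 28.5% against 32.2%. The upstream difference was thus not particular to A. Most covered codons thus had no run of 6 A near them.

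The start context differed at single positions. A purine at -3 was present in 84.9% of covered codons and in 85.9% of the others, with overlapping intervals. A at -3 was present in 52.4% of covered codons (interval 49.5 to 55.3), against 45.1% (interval 44.0 to 46.2), and G at +4 in 45.9% (interval 43.0 to 48.7), against 52.6% (interval 51.5 to 53.7). An ATG upstream in the 5′ UTR was present in 61.8% of covered and 55.1% of other transcripts.

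These values depend in part on which codon of a gene is taken. With the leading transcript's codon in both groups (1038 covered), a purine at -3 was present in 88.5% against 85.9%, G at +4 in 49.3% against 52.6% with overlapping intervals, and an upstream ATG in 57.3% against 55.1%. The run of 6 A was then present in 4.14% of covered codons against 1.41%, and A at -3 in 55.2% against 45.1%. Between 20 and 100 RPKM the run was present in 3.91% of covered codons (interval 2.41 to 5.98) against 0.99%, while at 100 RPKM or more it was 2.67% (interval 1.23 to 5.01) against 1.62% (interval 0.78 to 2.97), with overlapping intervals. AATAAA was there in 2.74% of covered codons against 0.74% between 20 and 100 RPKM. At 100 RPKM or more it was 0.89% (interval 0.18 to 2.58) against 0.65% (interval 0.18 to 1.65), also overlapping. At that level A made up 17.0% of bases upstream of covered codons against 16.7%, and T 19.5% against 17.8%. A at -3 was present in 53.4% (interval 47.9 to 58.8) against 47.4% (interval 43.4 to 51.4), again overlapping, and a purine at -3 in 92.3% against 92.5%. Base composition and motif shares come from the same letters and are not separate findings.

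Deletion sites were rare under start-codon peaks. The 35 peaks with at least 1 site made up 2.50% (interval 1.74 to 3.45), against 1.24% of 5′ UTR peaks, 0.61% of coding peaks, 6.32% of 3′ UTR peaks and 23.1% of stop-codon peaks. Taller peaks held more: 0.17% of start-codon peaks of 2 to 8 tags, 1.91% of those of 9 to 73, 13.1% (interval 5.84 to 24.2) of those of 74 to 199 and 46.2% (12 of 26, interval 26.6 to 66.6) of those of 200 or more. At 74 to 199 tags the share was 31.9% (interval 29.02 to 34.9) for stop-codon peaks and 29.1% (interval 27.4 to 30.9) for 3′ UTR peaks, above the interval of start-codon peaks, and 15.8% (interval 10.9 to 22.0) for coding peaks. At 200 or more it was 74.9% for stop-codon peaks, 68.8% for 3′ UTR peaks and 25.7% (interval 12.5 to 43.3) for coding peaks. Among peaks of 2 to 8 tags, 0 of 1094 stop-codon peaks held a site, against 1 of 581 start-codon peaks. No listed site in start-codon peaks had fewer than 4 deletions, so peaks this low could hardly hold one. A peak without a listed site may still hold tags with deletions. In the ranges of 74 to 199 and of 200 tags or more, start-codon peaks thus held sites less often than stop-codon peaks, and their intervals overlapped those of coding peaks. Heights within a range still differed, since stop-codon peaks reached 10814 tags. Stop-codon peaks were also wider, with a median of 262 nt against 132 nt at 74 to 199 tags, and the part of width in this was not tested.

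**Figure D5:**
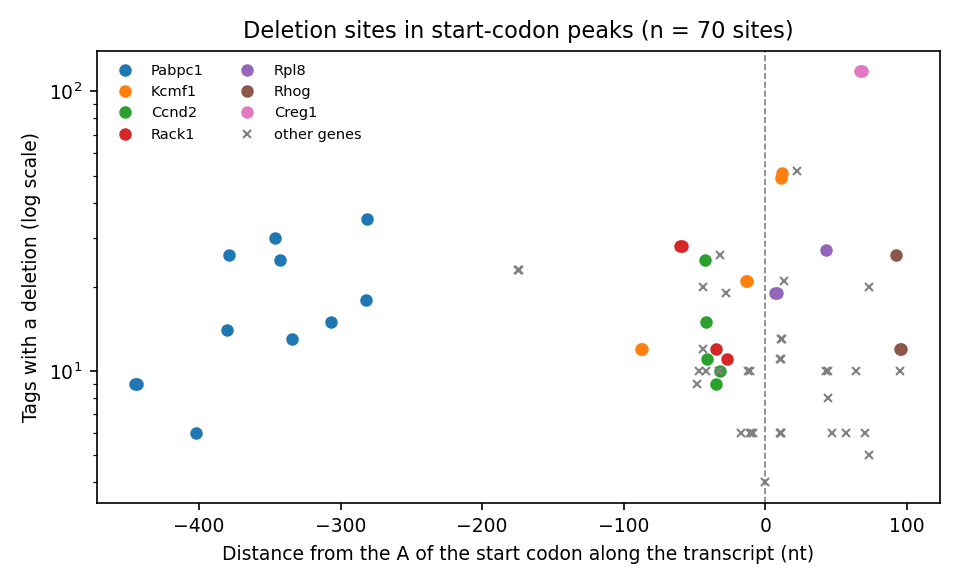
Tags with a deletion (log scale) at each deletion site in start-codon peaks, by distance in nt from the first base of the start codon. Distance is along the transcript, and the 3 sites outside the exons are left out. The 6 genes with the most sites and Creg1 are coloured, and sites of other genes are crosses. Sites lie between positions -445 and 96.

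In all, 73 deletion sites with 1323 deletions lay in these peaks, 0.61% of all sites. Of them 40 (54.8%) were in the 5′ UTR, 29 (39.7%) in coding sequence, 1 in a start codon and 3 outside the exons of the transcript. These regions are those of the transcript whose start codon the peak covers. That transcript was not always the leading one, on which some sites may lie in another region. The median coverage of the 73 sites was 183 tags with 12 deletions. The median share of tags with a deletion was 9.29% (interval 6.59 to 15.4), against 12.8% over all sites. The deleted base was T at 32 sites, A at 24, C at 7 and G at 7. A run of 6 A lay within 20 nt of 13 sites, all of them in Pabpc1, Ccnd2 and Fam111a, and 42 sites lay within 50 nt of the codon. The bases and runs at these sites were not compared with those at all deletion sites. Some neighbouring sites had equal counts, such as 118 at both Creg1 sites and 28 at positions -60 and -59 of Rack1. Whether the same tags were counted at both bases was not tested, so numbers of sites and deletions may not be separate events.

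Pabpc1 held 11 sites with 200 deletions, all between positions -445 and -281 from its start codon. At -379, in the window shown above, 26 of 215 tags had a deletion (12.1%) and 61.0% of the surrounding bases were A. At -281, 35 of 2059 tags had one (1.70%) and 26.8% of the bases were A. Of these sites, the one under the most tags thus had one of the lower deleted shares. Ccnd2 held 5 sites with 70 deletions between positions -43 and -32, with 43.9% to 56.1% of A around them, and its peak of 338 tags was above its tallest other of 240 (log2 ratio 0.49).

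Sites in Rack1, Kcmf1, Rpl8 and Creg1 had less A around them than those of Ccnd2. Rack1 held 4 sites with 79 deletions between positions -60 and -27, where 7.32% to 12.2% of the surrounding bases were A. Kcmf1, an E3 ubiquitin ligase, held 6 sites with 166 deletions between positions -88 and 12, the largest with 51 of 300 tags (17.0%), and 26.8% to 36.6% of the bases around them were A. The Kcmf1 codon was neither the most 5′ annotated start of the gene nor that of a principal transcript. Rpl8 held 3 sites between positions 7 and 43. Creg1 had the sites with the most deletions, 118 of 327 tags (36.1%) and 118 of 353 (33.4%) at neighbouring positions 67 and 68 from its internal start codon. The one site inside a start codon, on Sclt1, rested on 4 of 4 tags.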

How the data were processed

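The authors deposited a merged peak list, whose score per peak is a whole number taken here as its height in tags. The reading rests on the deletion sites inside peaks: coverage did not exceed the height at 10116 of 10137 of them (99.8%). They also deposited the count of tags with a deletion at each site, and RPKM values for genes, in which genes at 0 are not listed. Per the submitters' processing notes, the tools were HTSeq 0.6.0, TopHat2 2.0.12, Novoalign 3.02.02 and cutadapt 1.4.2, with mm10 and no role stated. The peak caller, its threshold and the depth of each sample are not given in the sources used here.

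Peaks were placed on GENCODE M21 basic transcripts with Python 3.11.15, numpy 2.4.6, pandas 2.3.3 and scipy 1.17.1, and figures were drawn with matplotlib 3.10.9. Positions were converted to spliced coordinates and sequences were read from the GENCODE transcripts. The placement was tested on simulated peaks. Of the RPKM identifiers, 98.4% matched the annotation, and genes of 1 RPKM or more count as expressed. Shares have exact Clopper-Pearson intervals and medians have binomial order-statistic intervals. The interval of Spearman's rho uses Fisher's z transformation. Of all annotated starts, 15 of 21596 are not ATG in the transcript sequence.

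The members and the gene lists were chosen with earlier results of these data known. Genes named are the 12 with the tallest peaks, the 6 each with most deletion sites, largest ratio to other peaks, narrowest and widest peaks (the last 3 among peaks of 74 tags or more), and the 4 tallest of each list. Some genes that this rule names are not reported here. Histone genes, Sclt1 and the Creg1 sites were chosen after their values were seen. Alternatives covered the codons used, the overlap, the height and RPKM minimums, the search windows and leaving out ribosomal protein genes.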

Additional observations from a re-analysis of the deposited data

How the results depend on the processing

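Of 81 recomputed values, 47 moved by less than their interval or stayed within 1.5 times the count, and 34 moved. With peaks of 9 tags or more there were 821, on 7.62% of expressed genes, with a median of 20 tags, a reach of 32 nt upstream and 54 nt downstream, a log2 ratio to the tallest other peak of -3.63, a deletion site in 4.14% and a Spearman's rho with RPKM of 0.23. With 74 tags or more there were 87, on 0.85% of expressed genes, with a median of 143 tags, a reach of 53 nt and 69 nt, a ratio of -1.54, a site in 23.0% and a rho of 0.21. Peaks within 1 exon numbered 767, on 7.28% of genes, with a median of 8 tags, a reach of 37 nt downstream, a ratio of -4.45, a site in 1.30% and a rho of 0.28. The share of genes with a start-codon peak was 9.09% with principal transcripts only, 11.0% with the most 5′ codon only, 17.0% at 10 RPKM or more and 6.22% with no minimum. A run of 6 A was near 7.49% of covered codons with 100 nt searched, and a run of 5 A near 12.9%. A upstream was 19.5% with 100 nt, 20.5% at 10 RPKM or more and 19.7% with the leading transcript's codon only, an alternative chosen after seeing the data, which also gave a purine at -3 in 88.5% and G at +4 in 49.3%. The interval of rho at 74 tags or more, -0.00045 to 0.41, includes 0. No paired analysis was possible because the authors merged the replicates into 1 list, so no replicate could be left out either. Depth limits the low peaks: 581 of the 1402 had 8 tags or fewer.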

Other observations

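The 14 peaks that touched both a start and a stop codon were far taller than the start-codon peaks, with a median of 229 tags (interval 28 to 324) against 10, and 7 of them held a deletion site. The tallest was on Gemin7, of the SMN complex, with 1472 tags over 732 nt of genome. Asnsd1 had 380 tags over 605 nt, Mkks 324 over 321 nt, Ndufa6, a subunit of respiratory complex I, 300 over 238 nt, and Dpm3 262 over 412 nt. In such short reading frames or overlapping annotations, start-codon and stop-codon signal cannot be told apart.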
